A study of Mus musculus with 16 samples.

Results

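Asns, Glul, Glud1, Got1, Got2, Gpt and Gpt2 encode the enzymes that make asparagine and glutamine and that pass amino groups between glutamate, aspartate and alanine. The 7 genes were chosen by name, and all 7 were found among the 19108 gene symbols measured in quadriceps muscle. All 7 also passed the filter on low counts, which left 13666 genes for testing. The study compared mice that overexpress Ant1, now named Slc25a4, with wild-type mice (WT). Ant1 is the adenine nucleotide translocase of muscle, which brings ADP into mitochondria and lets ATP out. From its title, the study is about how the cytosol of muscle adapts its protein balance under mitochondrial stress and about muscle wasting.

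The transgenic mice (Tg) carried the genotype ANT1(Tg)/+ and the controls are labelled WT. The mice of both genotypes were C57BL/6, were 6 months old and ate regular chow, and controls were littermates where that was possible. There were 4 Tg females, 4 Tg males, 4 WT females and 4 WT males, with 1 library of polyadenylated RNA from each mouse. The promoter that drives the transgene, and whether the line has 1 founder, are not stated in the sources used here. No label names a sequencing batch or date.

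Levels are given as counts per 1000000 (CPM), and the libraries held between 17.4 and 30.7 times that many counts before scaling by TMM factors of 0.887 to 1.10. Slc25a4, the gene of the transgene, averaged 9755 ± 876 CPM in Tg muscle and 3399 ± 408 CPM in WT muscle (SD, n = 8 each), a 2.88-fold difference. These counts cannot tell transgene transcripts from those of the mouse's own gene. The 8 myofibre markers, Ckm, Acta1 and Ttn among them, summed to at least 126307 CPM in every library. Of these 8, the myosin genes Myh1 and Myh7 were called higher in Tg and Myh4 lower. Myh7 spread from 0.974 to 408 CPM in Tg and from 0.0534 to 7.43 CPM in WT, so that the genotypes overlapped. The 8 adipocyte markers summed to 481 to 2216 CPM in the 8 Tg libraries and to 576 to 4229 CPM in the 8 WT libraries. The sums of WT female 2 (4229 CPM), WT male 1 (4135 CPM) and WT female 1 (3370 CPM) stood above all others. No adipocyte marker was at 0 in all libraries of any group, and 0 of 8 were called in the averaged comparison by edgeR, by DESeq2 or by limma-voom, with 0 of 8 at an unadjusted p under 0.05. In bulk muscle, fewer cells of a type and less RNA per cell cannot be told apart.

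Asparagine synthetase (Asns) moves the amide nitrogen of glutamine onto aspartate, and glutamine synthetase (Glul) fixes ammonia onto glutamate. Glutamate dehydrogenase (Glud1) links glutamate with alpha-ketoglutarate inside mitochondria. Aspartate aminotransferase exists in a cytosolic form (Got1) and a mitochondrial form (Got2), which take part in the malate-aspartate shuttle of reducing equivalents. Alanine aminotransferase likewise has a cytosolic form (Gpt) and a mitochondrial form (Gpt2). Resting and fasted muscle is a major source of the glutamine and alanine in blood. Asns is a well-known target of ATF4, the transcription factor of the integrated stress response, which binds C/EBP-ATF composite elements in promoters.

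Promoter windows of RefSeq (build GRCm38.p6, 250 bases before to 50 after the start) were matched for 6 of the 7 genes. They were searched on both strands for the C/EBP-ATF element TGATGNAA and for GTTACA, a second element known from the human ASNS promoter. The stretches below are shown because these were the 2 of the 6 windows that held TGATGNAA, and because Asns and Got1 had the largest increases among the 7 genes. Both are read along the gene's own strand, 5′ to 3′, and the capitals mark the match.
Asns, chr6:7693225-7693329, minus strand: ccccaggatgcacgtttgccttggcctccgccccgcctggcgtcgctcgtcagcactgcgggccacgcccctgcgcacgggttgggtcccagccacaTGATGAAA
Got1, chr19:43524666-43524785, minus strand: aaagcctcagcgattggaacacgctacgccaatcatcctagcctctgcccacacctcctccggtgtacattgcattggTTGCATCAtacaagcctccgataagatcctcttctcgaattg
In Asns the match lay 23 to 16 bases before the RefSeq start, and a GTTACA lay across the start itself, from 3 bases before it to 3 after. GENCODE M21 places the start of Asns 45 bases further upstream, so that the match lies downstream of that start. In Got1 the element read on the opposite strand, so that the printed strand shows its complement, 102 to 95 bases before the start. TGATGNAA occurred in 1304 of 32851 mouse promoter windows (3.97%), GTTACA in 2709 (8.25%) and both in 228 (0.694%). The windows of Glul, Glud1, Got2 and Gpt2 held neither set of letters. These are matches of letters, and binding was not measured.

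The main comparison asked what the transgene changed in muscle with both sexes weighed equally. Of the 7 genes, 4 were called higher in Tg (Asns, Got1, Gpt2 and Got2), 1 was called lower (Glul), and Glud1 and Gpt were not called. A gene was called at an adjusted p under 0.05, and 30.4% of all tested genes were, 17.2% higher and 13.3% lower. That background is 2344 higher and 1816 lower genes, and with unscaled library totals it was 2998 higher and 1230 lower. The median log2 fold change was 0.31 over the 7 genes and -0.01 over all tested genes. The sizes differed widely, as the plot of fold changes shows. Without the 3 WT libraries highest in adipocyte markers, 2 of the 7 were called higher (Asns and Got1) and 1 lower (Glul). In females 3 of the 7 were called higher (background 10.1%, 1382 genes) and 1 lower (7.57%, 1034 genes). In males 2 were called higher (9.84%, 1345 genes) and 0 lower (8.39%, 1146 genes). With unscaled totals the male background split as 2027 higher and 698 lower. DESeq2 and limma-voom also called 2 of the 7 in males, and 3 had an unadjusted edgeR p under 0.05.

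**Figure D1:**
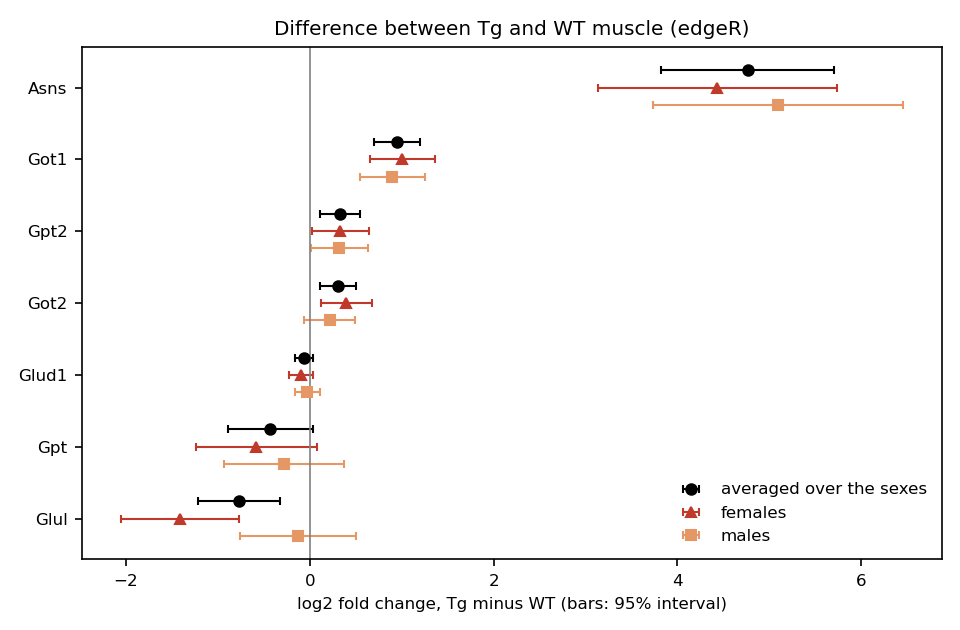
Log2 fold change, Tg minus WT, of each of the 7 genes from edgeR, averaged over the sexes (black circles) and within females (red triangles) and males (orange squares), with 95% intervals as bars. Asns stood at 4.77, Got1 at 0.95 and Glul at -0.77 on average, with Glul at -1.41 in females and -0.13 in males. The averaged value of Glud1, -0.06, was 0.005 with unscaled library totals.

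Asns showed the largest difference of the 7. Its level was 93.3, 75.4, 86.7 and 81.7 CPM in Tg females and 90.8, 74.3, 86.8 and 99.3 CPM in Tg males. In WT females it was 5.50, 7.24, 1.87 and 0.662 CPM, and in WT males 6.42, 1.33, 1.34 and 1.24 CPM. Every Tg library lay above every WT library, while the WT libraries themselves spread over an order of magnitude. A gene whose 8 Tg libraries all lay above all 8 WT libraries was found in 5.23% of tested genes. The log2 fold change was 4.77 (SE 0.44, 95% interval 3.82 to 5.71, adjusted p = 3.33e-06), or 27.2-fold (14.2 to 52.2). Only 16 of the tested genes had a higher value. In females it was 4.43 (adjusted p = 0.000291) and in males 5.10 (adjusted p = 0.000102).

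The WT spread of Asns moved with the adipocyte markers. The 3 WT libraries with the highest marker sums held the 3 highest WT values of Asns, while the other 5 WT libraries stood between 0.662 and 1.87 CPM. Without those 3 libraries the log2 fold change of Asns was 6.04 (adjusted p = 4.42e-11), with 6.04 in females and 6.03 in males. Without WT male 1 alone the male value was 6.05. Since the libraries taken out held the highest WT values of Asns, a larger fold change was built into their removal. For WT, the female value without the 3 libraries rested on WT female 3 and WT female 4 alone. With the planned adipocyte covariate the averaged value of Asns was 5.17. The part of adipocyte RNA in the WT level was not tested. The Tg libraries showed no such order of Asns by adipocyte markers, as the plot against these markers shows.

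**Figure D2:**
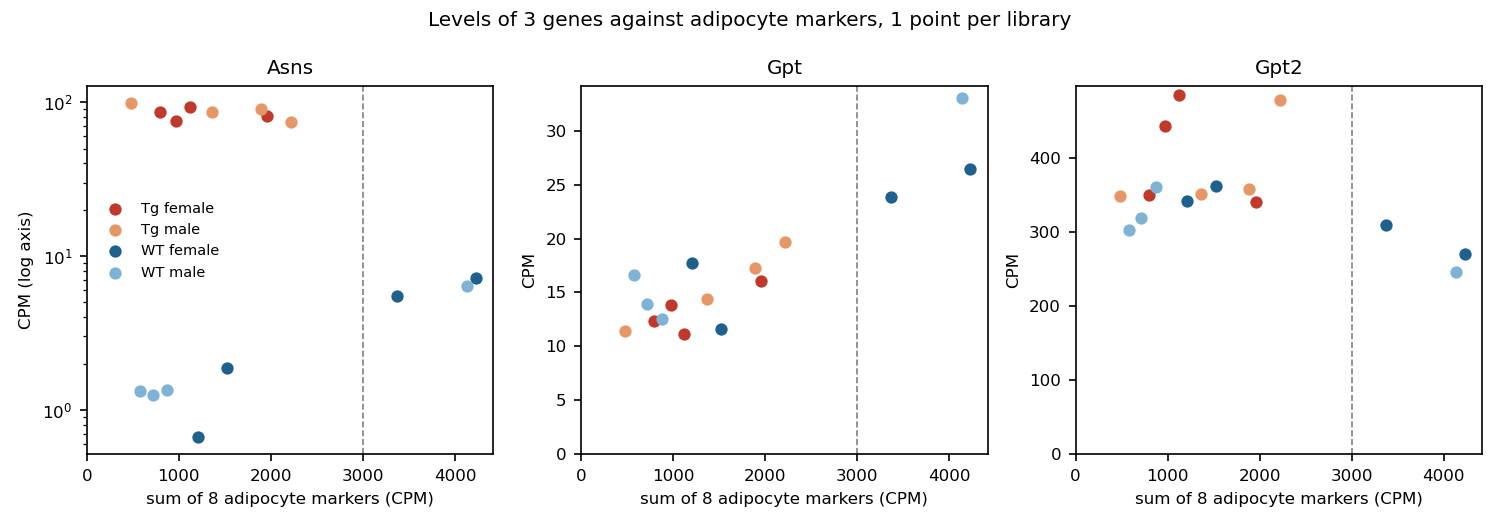
Level of Asns (log axis), Gpt and Gpt2 in CPM against the summed CPM of 8 adipocyte markers, 1 point per library, coloured by group; the dashed line marks 3000 CPM. The 3 WT libraries right of the line are the highest WT libraries for Asns (5.50 to 7.24 CPM) and the highest of all for Gpt (23.9 to 33.1 CPM).

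Glul, which makes glutamine, was the 1 gene of the 7 called lower in Tg. Tg females had 312, 349, 331 and 497 CPM and Tg males 410.1, 463, 172 and 210.4 CPM. WT females had 651, 1161, 861 and 1280.5 CPM, whereas WT males had 308, 295, 410.4 and 361 CPM. All 4 Tg females lay below all 4 WT females, a pattern that 7.22% of tested genes showed, and the males of both genotypes overlapped. Glul fell by 1.41 on the log2 scale in females (SE 0.30, 95% interval -2.05 to -0.77, adjusted p = 0.00515), to 0.377 of the WT level. Marker lists of other cell types went both ways in the same comparison. Median log2 fold changes in females were 0.035 for endothelial, 0.15 for Schwann cell and nerve, and 0.45 for red blood cell markers. They were -0.54 for satellite cell and -0.46 for smooth muscle markers. The median log2 fold change in females was -1.33 over 8 adipocyte markers, -1.0 over 5 macrophage markers and -0.56 over 4 fibroblast markers, against -0.43, -0.10 and 0.05 in males. In females edgeR called 0 of the adipocyte, macrophage and fibroblast markers, with 1, 4 and 2 at an unadjusted p under 0.05. DESeq2 called 0, 2 and 1 of them. Without the 3 libraries highest in adipocyte markers Glul stood at -1.54 in females (adjusted p = 0.015). The part of macrophage and fibroblast RNA in the Glul values was not tested. In males the difference was -0.13 (SE 0.29, -0.76 to 0.50, adjusted p = 0.836), and it changed sign without Tg male 3 (0.07) or Tg male 4 (0.02). Averaged over the sexes it was -0.77 (SE 0.21, -1.22 to -0.32, adjusted p = 0.0119), and 468 tested genes had a lower value. The edgeR test of the difference between the sexes gave 1.28 (SE 0.42), which was not called over all genes (unadjusted p = 0.00841, adjusted p = 0.489). That test called 1 gene in all (0.00732%) with edgeR and 87 with DESeq2, and 1015 had an unadjusted p under 0.05. Of the 7 genes it called 0 with edgeR, DESeq2 or limma-voom, and Glul was the 1 gene with an unadjusted edgeR p under 0.05. Glul overlaps the exons of Teddm2 on the opposite strand by 116 bases, and the use of strand in counting is not stated in the sources used here.

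The sexes were also compared for Glul within each genotype, a comparison added after its values had been seen. Among WT mice the 4 males, at 295 to 410.4 CPM, lay below the 4 females, at 651 to 1280.5 CPM. A pattern of 4 WT males below 4 WT females was found in 3.99% of tested genes. The male minus female log2 difference was -1.52 in WT (SE 0.30, adjusted p = 0.0101), where 1.65% of genes were called lower in males. In Tg, where 0.527% of genes were called in either direction, it was -0.25 (SE 0.29, adjusted p = 0.837), with the 4 males at 172 to 463 CPM around the 4 females at 312 to 497 CPM. Without the 3 libraries highest in adipocyte markers, 2 of them WT females, the WT difference was -1.58 and no longer called (adjusted p = 0.0563). Averaged over the genotypes the difference was -0.88 (adjusted p = 0.0272), where 2.0% of genes were called lower. The call was lost without those 3 libraries (-0.92, adjusted p = 0.0526). It was also lost without WT male 1, 2 or 4, Tg female 4 or Tg male 4, at values between -0.90 and -0.80.

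**Figure D3:**
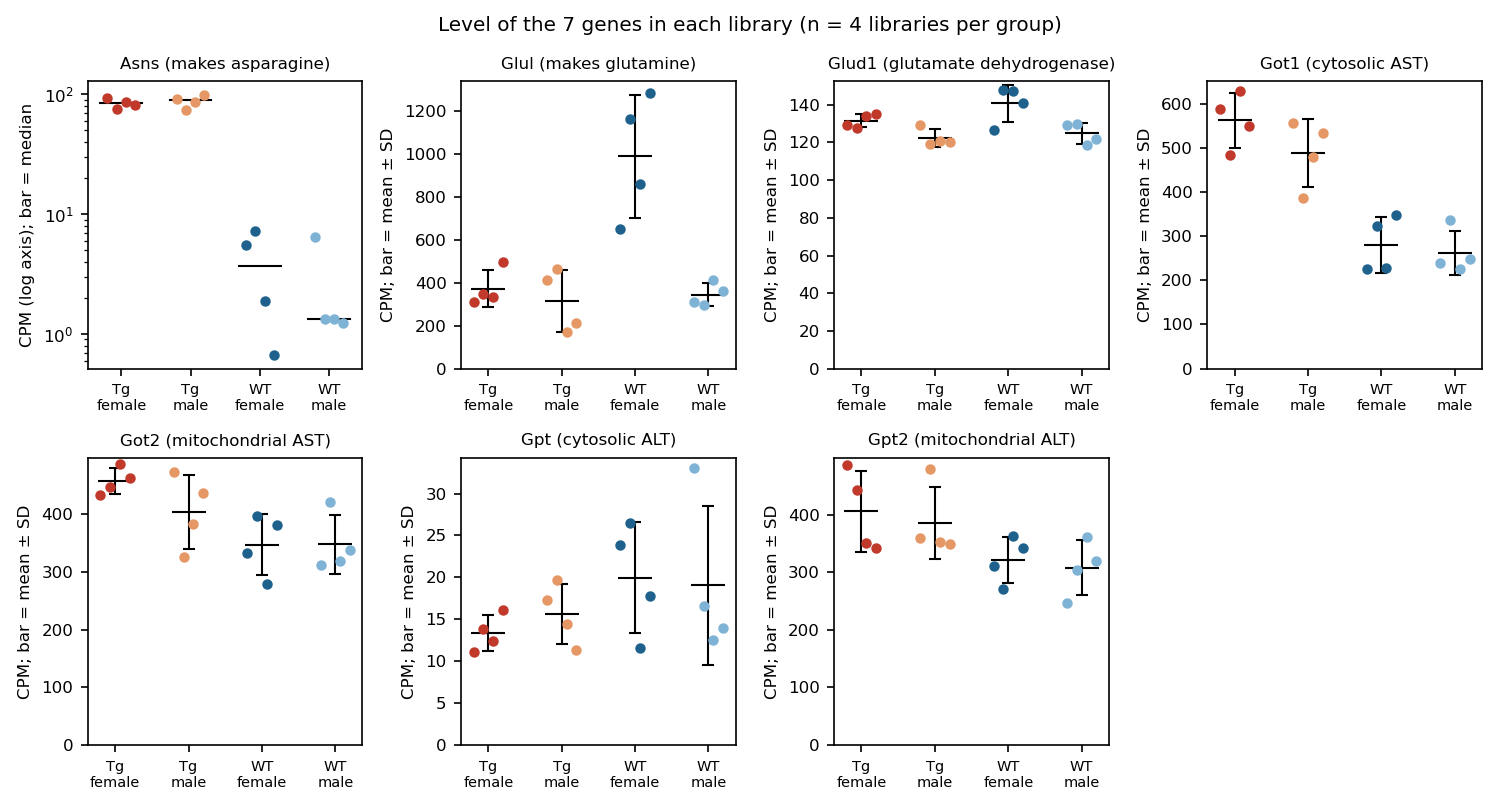
Level of each of the 7 genes in CPM, 1 point per library and 4 libraries per group; bars show mean ± SD, except for Asns, which has a log axis and the median. Asns (74.3 to 99.3 CPM in Tg, 0.662 to 7.24 CPM in WT) and Got1 (385 to 629 CPM in Tg, 225 to 347 CPM in WT) do not overlap between the genotypes. All Tg libraries lie above all WT libraries in 5.23% of tested genes. Glul is high in WT females alone.

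The aminotransferases of aspartate came next. Got1, the cytosolic form, had 588, 484, 629 and 548 CPM in Tg females and 557, 385, 478 and 534 CPM in Tg males. It had 225, 322, 227 and 347 CPM in WT females and 238, 335, 226 and 248 CPM in WT males. The lowest Tg library, Tg male 2, still lay above the highest WT library, a pattern found in 5.23% of tested genes. Got1 rose 1.94-fold (95% interval 1.63 to 2.30, log2 0.95, SE 0.12, adjusted p = 1.55e-05). The increase was called in females (1.01, adjusted p = 0.000644) and in males (0.90, adjusted p = 0.00127), and 335 tested genes had a higher averaged value.

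Got2, the mitochondrial form, had 433, 447, 487 and 462 CPM in Tg females and 472, 326, 383 and 437 CPM in Tg males. It had 332, 397, 279 and 381 CPM in WT females and 312, 422, 319 and 338 CPM in WT males. All Tg females lay above all WT females, which 10.8% of tested genes did, and the males overlapped. Got2 rose 1.24-fold on average (log2 0.31, SE 0.09, 0.11 to 0.50, adjusted p = 0.0187). It was called in females (0.40, adjusted p = 0.0466) and had a value of 0.22 in males (adjusted p = 0.293). Without the 3 libraries highest in adipocyte markers the averaged value was 0.30 and just missed the threshold (adjusted p = 0.0531). The call in females did not outlast 17 of the alternatives run, WT female 3 out giving the lowest value (0.31, adjusted p = 0.129). Got2 overlaps Gm45760 on the opposite strand by 434 bases and has a named pseudogene, Got2-ps1, which could share reads with it.

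To set Got1 directly against Got2, the balance between the compartments was compared within each library, where the scaling cancels out. The log2 ratio of Got2 to Got1 counts was -0.44, -0.11, -0.37 and -0.25 in Tg females and -0.24, -0.24, -0.32 and -0.29 in Tg males. In WT females it was 0.56, 0.30, 0.30 and 0.14, and in WT males 0.39, 0.33, 0.49 and 0.45. The ratio was below 0 in all 8 Tg libraries and above 0 in all 8 WT libraries. These are ratios of counts, and the place of 0 depends on message length: per kilobase of exons the mean of Got1 was above that of Got2 in all 4 groups, at 221 against 94.8 CPM per kilobase in Tg females and 110.3 against 72.0 in WT females. The difference was -0.65, at an exact p of 0.000408, the smallest that the 4900 arrangements within sexes can give (two-sided permutation test, adjusted p = 0.00122 over 3 ratios). It was -0.62 in females and -0.69 in males. The other partners of the malate-aspartate shuttle were counted beside Got1 and Got2. Of 6 tested, edgeR called 0 higher (background 17.2%) and 0 lower (13.3%), DESeq2 0 and limma-voom 1, with 2 at an unadjusted p under 0.05. Without WT female 2, WT female 4 or WT male 2, or without the 3 libraries highest in adipocyte markers, edgeR called 1 higher, and without WT female 3 it called 1 lower. Their median log2 fold change was 0.15. The malate dehydrogenases had values of 0.16 for the cytosolic Mdh1 (adjusted p = 0.246) and -0.11 for the mitochondrial Mdh2 (adjusted p = 0.244). The carriers Slc25a11, of malate and alpha-ketoglutarate, and Slc25a12, of aspartate and glutamate, had 0.15 (adjusted p = 0.101) and -0.06 (adjusted p = 0.591).

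**Figure D4:**
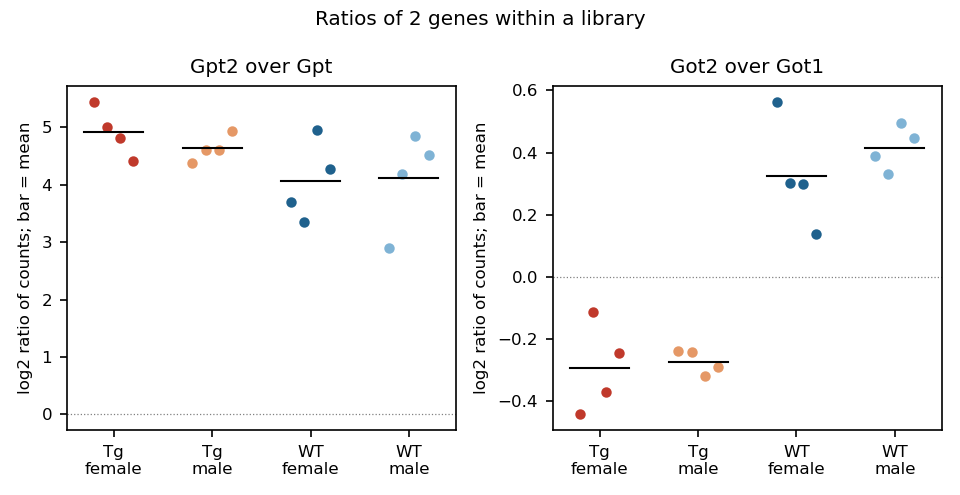
Log2 ratio of counts of Gpt2 to Gpt and of Got2 to Got1 in each library, by group, with the group mean as a bar. For Got2 to Got1 the 8 Tg libraries (-0.44 to -0.11) lie below the 8 WT libraries (0.14 to 0.56), and the ratio of Gpt2 to Gpt overlaps between the genotypes.

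The alanine aminotransferases differed less. Gpt2, the mitochondrial form, had 486, 443, 351 and 341 CPM in Tg females and 359, 479, 352 and 349 CPM in Tg males. It had 310.5, 271, 363 and 342 CPM in WT females and 247, 303, 361 and 320 CPM in WT males. The groups overlapped in both sexes, and 3 Tg libraries (Tg female 1, Tg female 2 and Tg male 2) stood above all others. Gpt2 rose 1.26-fold on average (log2 0.33, SE 0.10, 0.11 to 0.55, adjusted p = 0.0244), at 0.33 in females (adjusted p = 0.127) and 0.32 in males (adjusted p = 0.152). The averaged call was lost without any 1 of those 3 Tg libraries or without WT male 1 (0.27 to 0.31, adjusted p = 0.0508 to 0.0559). Without the 3 libraries highest in adipocyte markers, of which WT male 1 and WT female 2 had the lowest Gpt2, it was 0.19 (adjusted p = 0.193).

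Gpt, the cytosolic form, was the lowest of the aminotransferases here. It had 11.1, 13.8, 12.4 and 16.1 CPM in Tg females and 17.3, 19.6, 14.4 and 11.4 CPM in Tg males. It had 23.9, 26.4, 11.6 and 17.8 CPM in WT females and 33.1, 16.6, 12.5 and 13.9 CPM in WT males. The genotypes overlapped, and the 3 highest values belonged to the 3 WT libraries with the highest adipocyte marker sums. The log2 fold change of Gpt was -0.43 (SE 0.22, 95% interval -0.89 to 0.03, adjusted p = 0.153), and -0.03 without those 3 libraries (adjusted p = 0.902). The part of adipocyte RNA in it was not tested. The log2 ratio of Gpt2 to Gpt differed by 0.68 (exact permutation p = 0.0359, adjusted p = 0.0412), and by 0.21 without the 3 libraries (adjusted p = 0.345).

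Glud1 was the steadiest of the 7. Tg libraries ranged from 119 to 135 CPM with a median of 129, and WT libraries from 119 to 148 CPM with a median of 129. The groups overlapped in each sex. Its log2 fold change was -0.06 (SE 0.04, 95% interval -0.16 to 0.03, adjusted p = 0.313), and 0.005 with unscaled library totals, so its direction depended on the scaling. In females it was -0.10 (adjusted p = 0.299). In males it was -0.03 (adjusted p = 0.838), or 0.08 with unscaled totals, which moved the median of all genes in males to 0.13 from 0.03.

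Per kilobase of merged exons (GENCODE M21), the order of the 7 messages differed between the groups. In Tg females Got1 led with a mean of 221 CPM per kilobase, followed by Glul (112) and Got2 (94.8), Gpt2 (71.8), Glud1 (31.2) and Asns (30.8), and Gpt (4.54). Glul and Got2 overlapped there, as did Glud1 and Asns. In Tg males the order had Asns (32.1) just before Glud1 (29.1), which overlapped, and Glul (94.5) overlapped Got2 (83.8), which overlapped Gpt2 (68.2). In WT females Glul led with 297, far above Got1 (110.3), and Asns was last with 1.40 against 6.78 for Gpt. In WT males Glul (103.5) and Got1 (103.2) overlapped at the top, and Asns was again last (0.945). Asns, the lowest of the 7 in WT muscle, reached the level of Glud1 in Tg muscle.

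The genes whose level followed each of the 7 most closely over the 16 libraries were found by the root mean square difference of centred log2 CPM, among 10786 genes. For Asns they were Psat1 (0.32), an aminotransferase of serine synthesis, Trib3 (0.70) and Aldh18a1 (0.88), which starts proline synthesis from glutamate. Asns itself varied by 2.71 around its own mean. Those of Glul were Nfil3 (0.36), Slc7a8 (0.37) and Wbp1l (0.39), against a variation of 0.78. For Got1 they were Pnrc2 (0.19), Ciapin1 (0.19) and Shmt2 (0.20), against 0.54. Got2 was followed most closely by Dmac2 and Sdhb (0.11 each) and Mtfr1 (0.11), against 0.24. Gpt2 was followed by Prmt7, Prpf19 (0.12 each) and Tsr3 (0.13), against 0.25, and Gpt by Ormdl3 (0.20), Lrp5 and Adcy6 (0.23 each), against 0.44. Glud1 was followed by Gpkow (0.06), Bnip3l and Rad21 (0.07 each), against 0.098. With so little variation of Glud1 itself, other steady genes come close to it. The libraries differ in genotype, sex and depth, and these values hold neither genotype nor sex constant.

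The genes around the 7 were counted in lists of neighbouring pathways, with the same call rule. The background was again 17.2% of all tested genes higher and 13.3% lower. The list made for glutamine and asparagine breakdown had 0 of 6 tested genes higher and 2 lower, at a median of -0.16. These 2 were Asrgl1 (-0.25, adjusted p = 0.0465) and Aspa (-0.56, adjusted p = 0.0332). The enzyme of Aspa acts on N-acetylaspartate, not on glutamine or asparagine. Asnsd1, also among the 6, is named for an asparagine synthetase domain and was not called (0.045, adjusted p = 0.624). DESeq2 called 2 and limma-voom 1 of the 6, and with any 1 library left out edgeR called 0 or 1 lower. Without the 3 libraries highest in adipocyte markers the list had 2 lower. Aspa was then at -0.25 (adjusted p = 0.282) and Asrgl1 at -0.40 (adjusted p = 0.00184). Of 9 other glutamine amidotransferases, 3 were higher and 1 lower, or 5 higher without the 3 libraries highest in adipocyte markers. Ctps of CTP synthesis (1.38-fold), Cad (1.25-fold) of pyrimidine synthesis and Pfas (1.23-fold) of purine synthesis rose, and Ppat, the first enzyme of purine synthesis, fell by 0.40 on the log2 scale.

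Among 7 other aminotransferases tested, 2 were higher (background 17.2%) and 1 lower (13.3%), with a median of -0.08. Without Tg male 2 or WT female 3, and with DESeq2, 2 were lower. Psat1 had 157 ± 17.1 CPM in Tg and 4.31 ± 3.52 CPM in WT (SD, n = 8 each), Kyat3 rose 1.32-fold, and Oat, the ornithine aminotransferase, fell by 0.26. In the purine nucleotide cycle, in which aspartate donates its nitrogen in muscle, 1 of 5 was higher and 1 lower. Adsl, the lyase, rose 1.26-fold, and Ampd1, the AMP deaminase of muscle, fell by 0.42, at 1279 ± 267 CPM in Tg and 1707 ± 348 CPM in WT (SD, n = 8 each). Of 6 genes between glutamate and proline or ornithine, 3 were higher and 1 lower, with a median of 0.33. Aldh18a1 had 91.3 ± 8.50 CPM in Tg and 4.01 ± 0.811 CPM in WT. Aldh4a1, which works toward glutamate, fell by 0.29. The synthetases that load asparagine, aspartate, glutamine, glutamate and alanine onto tRNA had 6 of 9 higher and 0 lower. They included Nars (1.82-fold), which uses asparagine, and Aars (2.10-fold), Eprs (1.80-fold) and Ears2 (1.62-fold).

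**Figure D5:**
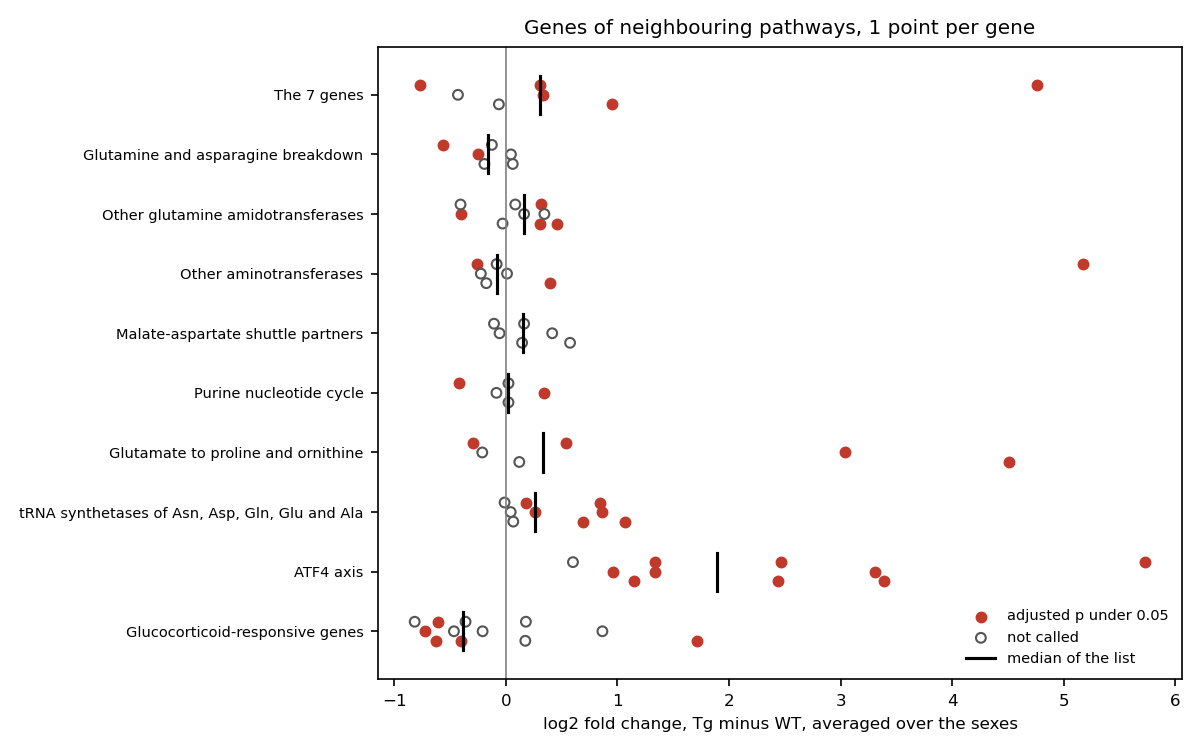
Log2 fold change, Tg minus WT averaged over the sexes, of each tested gene of the 7 and of 9 neighbouring lists; filled points were called at an adjusted p under 0.05, and the vertical bar is the list's median. The ATF4 axis has the highest median (1.89) and glucocorticoid-responsive genes the lowest (-0.38).

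ATF4 acts on Asns and glucocorticoids are known to induce Glul in rat muscle, so a list of each was counted as context. Of 10 genes of the ATF4 axis, 9 were higher (background 17.2%) and 0 lower (13.3%), with a median of 1.89. Atf4 itself had 330 ± 17.1 CPM in Tg and 149.5 ± 18.9 CPM in WT (SD, n = 8 each), a 2.22-fold increase. Atf5, a related factor, rose 9.92-fold and Sesn2, a stress-induced inhibitor of mTORC1 signalling, 10.5-fold. The list of 12 glucocorticoid-responsive genes had 1 higher and 4 lower, with a median of -0.38. It includes the receptor gene Nr3c1 and was not sorted by the direction in which a gene responds. Tsc22d3 (-0.61, adjusted p = 0.00552), Sgk1 (-0.72, adjusted p = 0.0168) and the receptor gene Nr3c1 (-0.40, adjusted p = 0.0103) fell, and without the 3 libraries highest in adipocyte markers Sgk1 was not called (adjusted p = 0.0533). Mt2, a metallothionein, rose 3.28-fold. In females 0 of the 12 were higher (background 10.1%) and 4 lower (7.57%), with a median of -0.57. In males 1 was higher (background 9.84%) and 0 lower (8.39%), with a median of 0.05. The interaction test called 0 of the 12 with edgeR, 1 with DESeq2 and 0 with limma-voom, and 3 had an unadjusted edgeR p under 0.05. The part of ATF4 in the Asns values and of glucocorticoids in the Glul values was not tested.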

How the data were processed

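Polyadenylated RNA from mouse quadriceps was sequenced as stranded paired-end libraries, per the labels' protocols. Build mm10 and the tools cutadapt 1.2.1, Bowtie2, TopHat2 and bcl2fastq come from the submitters' processing notes. The program that counted reads, its annotation and its use of strand are not stated in the sources used here. The labels state no unit. The deposited values were taken as estimated counts per gene symbol, since 93.53% of nonzero values lie within 0.01 of a whole number and library totals differ; all values of the 7 genes were whole. They were rounded, which moved none by more than 0.5.

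Tests used edgeR 4.0.16 in R 4.3.3: TMM scaling, filterByExpr (minimum count 10, minimum total 15), 1 mean per group over all 16 libraries, and the quasi-likelihood F test, two-sided. P-values were adjusted by the Benjamini-Hochberg method over all 13666 tested genes. SE is the log2 fold change divided by the square root of F, and 95% intervals use the t quantile at the model's degrees of freedom. The biological coefficient of variation was 0.201. Ratios used counts plus 0.5 and an exact permutation test within sexes, adjusted over 3 ratios, of which 1 is not reported here. Alternatives were DESeq2 1.42.0, limma-voom 3.58.1, other scalings and filters, an adipocyte covariate, each sex alone, and leaving out libraries. The fit was tested on simulated data. Sequencing reads carried no molecular identifiers, and the spread is that between mice.

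The 7 genes, the lists and the tests were chosen with earlier results of these data known. Besides the 7, up to 4 called genes with the smallest adjusted p per list were open to naming, or the most abundant where none was called, with partners of the ratios, the 3 closest genes of each of the 7, and Slc25a4.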

Additional observations from a re-analysis of the deposited data

Results flagged for a closer look

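In 36 groups of 4 libraries, each tested for a highest or lowest library that stood apart from the rest by Dixon's 95% criterion, 3 were marked, and chance marks about 1 in 20 such groups. WT male 1 had 6.42 CPM of Asns, against 1.24 to 1.34 CPM in the other WT males; this library also had 4135 CPM of summed adipocyte markers, against 576 to 873 CPM in the other 3, and the part of those in it was not tested. Tg male 1 had 129.5 CPM of Glud1, against 119 to 121 CPM in the other Tg males. Tg male 2 had 479 CPM of Gpt2, against 349 to 359 CPM in the other Tg males, and in the same library Got1 (385 CPM) and Got2 (326 CPM) had their lowest Tg values.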

How the results depend on the processing

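No paired analysis was possible because no label links a Tg mouse to a WT mouse and replicates were numbered by accession. Averaged over the sexes, Asns (4.60 to 6.04), Got1 (0.89 to 1.02) and Glul (-0.89 to -0.67) kept their direction and their call in every alternative run. Glud1 was 0.005 with unscaled totals, and 0.079 in males. Without the 3 WT libraries highest in adipocyte markers, an alternative chosen after the data were seen, Got2 was 0.30 and Gpt2 0.19, neither called, the log2 ratio of Gpt2 to Gpt was 0.21, and Gpt in males was 0.092. With the adipocyte covariate, which was planned, the averaged calls of Got2 and Gpt2 were kept. Got2 in females was then 0.34 and not called (adjusted p = 0.109). The planned limit of 4 times the median marker sum took no library and gave no value. With 1 library left out, Gpt2 ranged from 0.27 to 0.37, the ratio of Gpt2 to Gpt from 0.48 to 0.83, Glul in males from -0.38 to 0.072 (0.020 without Tg male 4), and Gpt in males from -0.43 to 0.11 (without WT male 1). That ratio lost its call in 10 of the 16. Got2 over Got1 kept its call throughout.

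The number of genes called in females was 1402 with each sex fitted alone. The interaction count of 1 was 11 with unscaled totals, 87 with DESeq2, 8 without a filter, 3 with the adipocyte covariate, 13 without the 3 libraries and 0 to 23 with 1 library left out. Between the sexes, 72 genes in Tg (166 with DESeq2, down to 43 with 1 library left out) and 501 in WT (807, down to 292) were called. The causes were not tested. With 4 mice per group, the intervals of Gpt and of Glul in males span both directions.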

Other observations

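Other cell-type markers were counted beside the 7 genes in the averaged comparison, where 17.2% of all tested genes were called higher and 13.3% lower. Of 4 satellite cell markers 1 was called lower (Chodl, -1.07, adjusted p = 0.000158), and of 4 red blood cell markers 1 higher (Hba-a1, 0.38, adjusted p = 0.0473, whose near-identical copy Hba-a2 could share its reads). Endothelial (0 of 4), macrophage (0 of 5), fibroblast (0 of 4), Schwann cell and nerve (0 of 4) and smooth muscle markers (0 of 3) had no call there by edgeR, DESeq2 or limma-voom, with 0 at an unadjusted p under 0.05. In females alone, 10.1% of all tested genes were called higher and 7.57% lower. There 4 of the 5 macrophage and 2 of the 4 fibroblast markers had an unadjusted edgeR p under 0.05. DESeq2 called 2 and 1 of them, and edgeR and limma-voom called 0. Of the 4 red blood cell markers edgeR called 2 higher in females, while DESeq2 called 2 and limma-voom 0. The 5 macrophage markers summed to 27.6 to 82.4 CPM in Tg females, 61.7 to 143 CPM in Tg males, 53.6 to 170.1 CPM in WT females and 62.3 to 127.5 CPM in WT males. The 4 fibroblast markers summed to 365 to 801 CPM in Tg females, 670.2 to 1128 CPM in Tg males, 524 to 1170 CPM in WT females and 688 to 996 CPM in WT males.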
